A study of Mus musculus with 54 samples.

Results

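The genes described here are 39 mouse genes known to respond to interferon, chosen by symbol from a fixed list. The list was chosen with earlier results of these data known, so counts of called genes are not independent of the choice. All 39 were found among the 25229 gene symbols of the count files, and all 39 passed the filter on low counts in every fit. They were measured by strand-specific sequencing of polyadenylated RNA from 3 sections of the small intestine. The duodenum receives what leaves the stomach, the jejunum follows, and the ileum opens into the large intestine. The mice were lactating females at day 7 of lactation (LF), age-matched virgin females (VF) and virgin males (VM), all on a standard diet (RM3 in breeding, RM1 in maintenance and during the experiment). The labels give no strain, genotype or age in weeks for these mice. Each of the 9 groups had 6 libraries, and no label states that each library came from a separate animal, so p-values measure the spread between these libraries.

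Interferons are proteins that cells release when they detect viral nucleic acid. Type I interferons act on nearly all cells and type III interferons mainly on epithelia, where they protect the gut lining. Both signal through the kinases Jak1 and Tyk2 to a complex that contains Stat2 and Irf9, which binds the interferon-stimulated response element in promoters. Target genes include sensors of viral RNA, the oligoadenylate synthetases (Oas), the Ifit and Mx proteins, and Irf7, which in turn drives further interferon genes. In a healthy gut, a low level of this programme is known to run without infection.

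Of the 54 libraries, 52 were used. The library labelled LF duodenum 3 held Alb, the liver's serum albumin, at 189559 CPM (read counts scaled to a common library size) against at most 194 in the libraries used, and no reads of the duodenal genes Pdx1 and Tmprss15. The library labelled LF jejunum 3 held Pdx1 at 17.8 CPM, against at most 0.274 in the other lactating jejunum libraries. Both were left out by the rule that defined the gene set, which leaves 5 libraries in each of those groups. In the other libraries Pdx1 (18 to 87.0 CPM in the duodenum), Lct (above 1019 CPM in the duodenum and jejunum and at most 5.04 CPM in the ileum) and Fabp6 (above 1178 CPM in the ileum) were where the labelled sections place them. The 52 libraries held 18479722 to 27604041 reads assigned to genes, which sets the counting error of low genes.

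Sequences upstream of these genes were read for the response element. The genes were chosen as known to respond to interferon, so a high share of windows with the element is not independent of that choice. In RefSeq promoter windows of GRCm38.p6, 250 bases before to 50 bases after each annotated start, the response element was searched on both strands as GAAA, any 2 bases, GAAA. It was found in 1131 of 32851 windows of all genes (3.44%) and in 23 of 36 windows of the listed genes (63.9%). By gene, 19 of the 30 listed genes with a window held it. A match describes the letters only. The elements below, read 5′ to 3′ on the gene's strand, belong to genes whose levels are described further on, with the element in capitals (GAAA blocks, or TTTC where it lies on the other strand).
Isg15, chr4:156200867-156200904, minus strand: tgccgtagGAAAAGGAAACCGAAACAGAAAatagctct
Rsad2, chr12:26456555-26456580, minus strand: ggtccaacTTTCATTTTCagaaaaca
Ifit1, chr19:34640777-34640802, plus strand: ggcttcagTTTCACTTTCcagtctca
Ifit1, chr19:34640796-34640821, plus strand: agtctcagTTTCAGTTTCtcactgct
Ifit3, chr19:34583365-34583390, plus strand: gtggtaagTTTCACTTTCctcttctg
Ifit3b, chr19:34607761-34607786, plus strand: gtggtaagTTTCACTTTCctcttctg
Oas1a, chr5:120907522-120907553, minus strand: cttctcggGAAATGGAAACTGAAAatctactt
Oas1g, chr5:120887608-120887639, minus strand: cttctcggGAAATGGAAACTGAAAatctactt
Oas3, chr5:120777717-120777742, minus strand: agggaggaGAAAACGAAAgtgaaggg
Ddx60, chr8:61928026-61928051, plus strand: gatgaatgGAAACCGAAActtaaagc
Ddx60, chr8:61928060-61928085, plus strand: gcagaagaGAAACCGAAActatcctt
Ifih1, chr2:62646206-62646231, minus strand: agagaatcGAAACAGAAAccgatctg
Ifitm3, chr7:141010708-141010733, minus strand: acttctgaGAAACCGAAActgccgca
Apol9a, chr15:77411116-77411147, minus strand: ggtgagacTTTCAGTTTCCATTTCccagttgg
Apol9b, chr15:77729027-77729058, plus strand: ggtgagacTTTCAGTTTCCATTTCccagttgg

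The pairs Oas1a and Oas1g, Ifit3 and Ifit3b, and Apol9a and Apol9b carried the same printed stretch, letter for letter. Isg15, which encodes a ubiquitin-like protein that is attached to other proteins, had overlapping elements that ran into each other. In Ifih1 and Ifitm3 the element lay after the annotated start. No element was found in the windows of Irf7, Irf9, Ifit2, Oasl1, Oasl2, Cmpk2, Ifi44, Ifi35, Xaf1, Herc6 and Lgals3bp, and 9 genes had no window, among them Oas2, Mx1, Usp18 and Zbp1. The genes lie in clusters on GRCm38, with 6 Oas genes on chromosome 5, 5 Ifit genes on chromosome 19, and Apol9a and Apol9b on chromosome 15. Reads that fit several places are not in these counts, and the twins share much sequence: of all 50-base words in its annotated transcripts, Oas1a shared 57.6% with Oas1g, Apol9b shared 52.3% with Apol9a, and Ifit3 shared 51.2% with Ifit3b. The values of these pairs are therefore uncertain, while 27 of the 39 genes shared under 5% of their words with any other gene.

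Most of the 39 genes were lower the farther the section lay from the stomach, with the duodenum highest and the ileum lowest. By group mean, 32 of 39 followed that order in virgin females, 28 in virgin males and 26 in lactating females, and 24 did so in all 3 kinds of mouse. The mean log2 CPM over the 39 genes was 5.91 ± 0.37 in the VF duodenum, 5.23 ± 0.39 in the VF jejunum and 4.55 ± 0.14 in the VF ileum (SD, n = 6 each). In virgin males it was 5.59 ± 0.29, 5.08 ± 0.23 and 4.30 ± 0.37 (SD, n = 6 each). Every VF ileum library lay below every VF jejunum library, and the VF duodenum and jejunum overlapped.

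**Figure D1:**
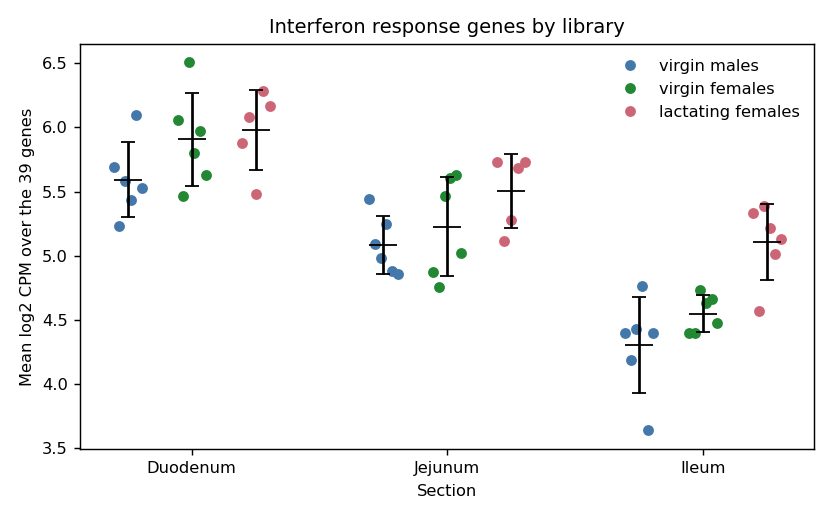
Mean log2 CPM over the 39 genes (vertical axis) for each of the 52 libraries used, by section (horizontal axis) and kind of mouse. Points are libraries, dashes are group means and bars are 1 SD. Group means fall from duodenum to ileum in all 3 kinds of mouse. The mean of the lactating ileum (5.11 ± 0.30) lies above that of the virgin female ileum (4.55 ± 0.14). These groups overlap, with the lowest lactating ileum library at 4.57 and the highest virgin female ileum library at 4.73.

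From duodenum to jejunum in virgin females, 21 of 39 genes were lower and 0 higher at an adjusted p under 0.05 in edgeR's quasi-likelihood test, where 19.8% of all genes tested were lower and 17.3% higher. Their median log2 fold change was -0.74, against -0.05 over all genes. In virgin males 19 were lower (26.3% of all genes) and 1 higher (23.6%), and all 19 were among the 21 of the virgin females. In lactating females 15 were lower (15% of all genes) and 0 higher (12.7%), and 8 were lower with the 2 left-out libraries put back as labelled. With libraries scaled by their totals alone, 30 were lower and 0 higher in virgin females, where the split over all genes was 5535 lower and 1416 higher against 3000 and 2620, and the median of all genes moved to -0.26. In virgin males that scaling gave 29 lower and 1 higher, to which the shares in parentheses do not apply. The 14 genes called lower in all 3 kinds of mouse were Bst2, Ddx60, Dhx58, Ifi44, Ifit2, Ifit3, Oas1a, Oas1g, Oas2, Rsad2, Rtp4, Trim30a, Usp18 and Xaf1.

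Oas2, which makes the short adenylate chains that activate RNase L, stood at 12.5, 23.6 and 38.7 CPM (lowest, median, highest library) in the VF duodenum and at 5.32, 8.14 and 9.998 CPM in the VF jejunum. The groups did not overlap, and the log2 fold change was -1.66 ± 0.26 (SE, adjusted p = 7.26e-05). Ifit3, one of the antiviral Ifit proteins, went from 27.1, 37.2 and 75.9 CPM to 8.66, 15.1 and 19.8 CPM, also without overlap (-1.63 ± 0.26, adjusted p = 9.9e-05). Ifi44 had the most negative fold change of the 39, -1.86 ± 0.35 (adjusted p = 0.000412), with overlapping groups. Usp18, the protease that removes Isg15 from proteins and dampens interferon signalling, changed by -1.37 ± 0.33, Trim30a by -1.28 ± 0.22 and Ifit3b by -1.27 ± 0.25. Among the cytoplasmic sensors of viral RNA and their relatives, Dhx58 (-1.25 ± 0.17) and Ddx60 (-1.20 ± 0.28) fell, and Ddx58 and Ifih1 were not called. Ifit1bl1 (-1.23 ± 0.38), Ifit2 (-1.18 ± 0.33), Rsad2 (-1.13 ± 0.27) and Mx2 (-1.10 ± 0.24) complete the 12 with the most negative values. The other 9 called were Oas1a, Oas1g, Isg15, Bst2, Herc6, Ifitm3, Xaf1, Oas3 and Rtp4, from -1.10 to -0.71. Of the transcription factors, Irf7, Irf9 and Stat2 were not called at this step.

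Most listed markers of macrophages, dendritic cells, T and NK cells, and B and plasma cells moved the same way at this step. Of all genes tested, 19.8% were lower and 17.3% higher. In virgin females 11 of 16 macrophage genes, 9 of 10 dendritic cell genes, 11 of 13 T and NK cell genes and 8 of 9 B and plasma cell genes were lower in the jejunum, and 8 of 10 epithelial genes were higher. The summed T and NK cell markers ranged from 205 to 433 CPM in the VF duodenum and from 114 to 325 CPM in the VF jejunum. The summed epithelial markers ranged from 9880 to 14374 CPM and from 18431 to 24286 CPM. Their part in the fall of the interferon response genes was not tested, and in bulk tissue fewer cells of a type and less RNA per cell cannot be told apart.

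From jejunum to ileum in virgin females, 24 of 39 genes were lower (24.1% of all genes) and 3 higher (23.8%), with a median log2 fold change of -0.70 against 0.06 over all genes. With libraries scaled by their totals alone, the count was 13 lower and 3 higher, with medians of -0.34 for the 39 genes and 0.41 for all genes. In virgin males 31 were lower (30.3% of all genes) and 3 higher (33.9%), and the 31 held all 24 of the virgin females. In lactating females 12 were lower (19.3% of all genes) and 3 higher (17.7%). That split was 8 lower and 4 higher with libraries scaled by their totals alone. It was 7 lower and 0 higher with the 2 left-out libraries put back as labelled. The shares of all genes in parentheses belong to the first count of each kind of mouse, not to these alternatives.

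Ifi27l2b, a small membrane protein gene, had the most negative change of this step in virgin females. It stood at 699, 789 and 1299 CPM in the VF jejunum and at 81.3, 93.0 and 137 CPM in the VF ileum (lowest, median, highest), a log2 fold change of -3.13 ± 0.23 (adjusted p = 2.27e-09). Apol9a and Apol9b, of the apolipoprotein L family, followed. Apol9a went from 43.1, 74.4 and 119 CPM to 4.93, 9.96 and 13.8 CPM (-3.05 ± 0.28, adjusted p = 3.71e-08). Apol9b went from 36.0, 63.9 and 115 CPM to 5.93, 12.5 and 22.3 CPM (-2.30 ± 0.35, adjusted p = 2.3e-05). None of these 3 was called between duodenum and jejunum, where their fold changes were 0.48, -0.19 and 0.27 on the log2 scale.

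Ifi35, which encodes a leucine zipper protein induced by interferon, had the same course, at 165, 186 and 220 CPM in the VF jejunum and 48.1, 64.5 and 93.6 CPM in the VF ileum (-1.52 ± 0.14, adjusted p = 4.14e-08). Usp18 fell again, by 1.97 ± 0.35 on the log2 scale, from 8.22, 15.8 and 35.6 CPM to 3.96, 4.91 and 6.31 CPM, without overlap. Isg15 went from 22.4, 31.8 and 46.2 CPM to 8.53, 11.4 and 20.2 CPM (-1.41 ± 0.26, adjusted p = 0.000233). Oas3 (-1.20 ± 0.23), Trim30a (-1.08 ± 0.22), Ddx60 (-1.07 ± 0.28) and Oas2 (-0.96 ± 0.26) also fell. Irf9, the DNA-binding partner of Stat2, fell by 0.55 ± 0.10 on the log2 scale, from 55.0, 69.0 and 85.3 CPM to 39.9, 46.6 and 51.7 CPM. The other genes called lower were Rtp4, Oasl2, Cmpk2, Mx2, Oasl1, Rsad2, Ifit3, Ifit1, Dhx58, Xaf1, Ddx58, Eif2ak2 and Lgals3bp, from -0.95 to -0.43. The 7 genes called lower in virgin males and not in virgin females were Herc6, Ifi44, Ifih1, Irf7, Mx1, Parp14 and Stat2. The change of Irf7 in virgin males was -0.30 ± 0.13 and was 0.11 with libraries scaled by their totals alone.

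The same 3 genes rose from jejunum to ileum in all 3 kinds of mouse. Ifitm3, a membrane protein that blocks virus entry, went in virgin females from 15.2, 23.5 and 39.2 CPM to 45.2, 57.9 and 66.2 CPM, without overlap (1.13 ± 0.20, adjusted p = 0.000174). Ifit1bl1 went from 28.3, 60.4 and 106 CPM to 78.8, 226 and 364 CPM (1.83 ± 0.38, adjusted p = 0.000677). Ifit2 went from 3.48, 5.10 and 10.8 CPM to 6.46, 12.4 and 17.7 CPM (0.93 ± 0.33, adjusted p = 0.0258). In the last 2 the groups overlapped, and all 3 had been lower in the jejunum than in the duodenum in virgin females.

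**Figure D2:**
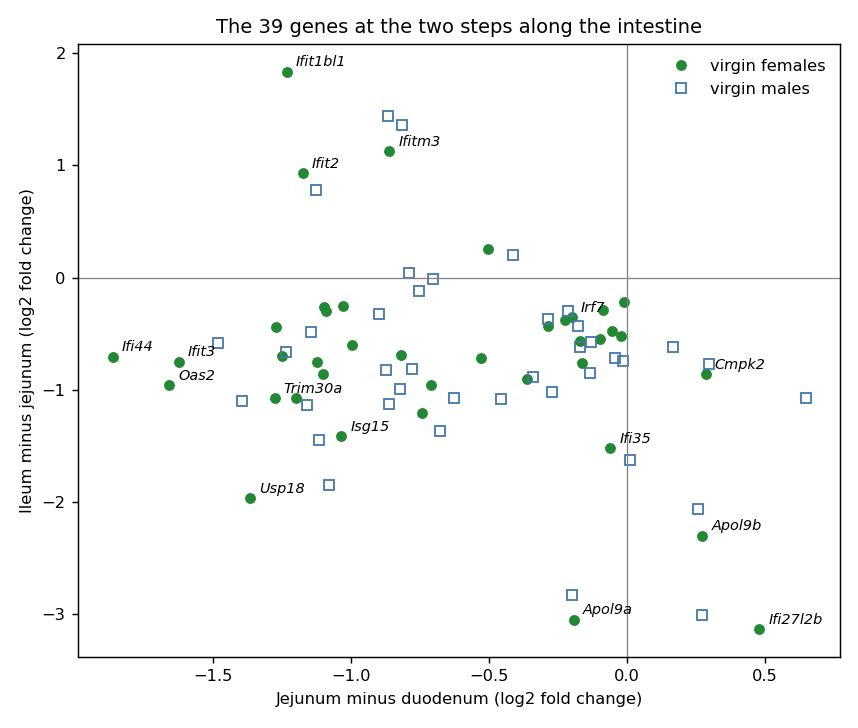
Log2 fold change from jejunum to ileum (vertical axis) against that from duodenum to jejunum (horizontal axis) for the 39 genes in virgin females (filled circles, some named) and virgin males (open squares). Ifi27l2b, Apol9a and Apol9b lie lowest on the vertical axis, Oas2, Ifi44 and Ifit3 farthest to the left, and Ifit1bl1, Ifitm3 and Ifit2 lie above 0 on the vertical axis.

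Markers at this step differed from those at the first. All 8 villus tip enterocyte genes were lower in the ileum in virgin females. Their summed levels were 17217 to 39054 CPM in the VF jejunum and 554 to 1169 CPM in the VF ileum. Most of the jejunal sum was Apoa4, with a mean of 20577 CPM in the VF jejunum and 58.4 CPM in the VF ileum. Of 16 macrophage genes, 9 were higher and 2 lower. Over all genes tested, 24.1% were lower and 23.8% higher. The part of these markers in the changes of the interferon response genes was not tested. Of the 9 listed interferon receptor and kinase genes 6 were lower and 0 higher, among them Ifnlr1 (-0.52 ± 0.13), a chain of the type III receptor, Il10rb (-1.03 ± 0.12), its partner, and Ifnar1 (-0.42 ± 0.08), a chain of the type I receptor. Of 34 interferon gamma GTPase and antigen presentation genes tested, 7 were higher and 4 lower, with a median log2 fold change of 0.20. Of 65 other interferon-stimulated genes 14 were higher and 18 lower, with a median of -0.01.

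Over both steps, 34 of 39 genes were lower in the ileum than in the duodenum in virgin females (25.8% of all genes) and 0 higher (21.2%). In virgin males 35 were lower (33.0%) and 1, Ifitm3, higher (32.2%), and in lactating females 28 were lower (28.5%) and 1, Ifitm3, higher (24.7%). In virgin females 30 of the 39 genes had every ileum library below every duodenum library, as did 13.8% of all genes tested. Virgin females and virgin males share no libraries, and the log2 fold changes of the 39 genes had the same sign in both for 36, 38 and 39 genes (jejunum against duodenum, ileum against jejunum, ileum against duodenum). The largest difference between virgin females and virgin males at any of the 39 genes was 0.68 on the log2 scale. The share of same signs over all genes was not taken, so this agreement is not shown to be particular to the 39 genes.

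**Figure D3:**
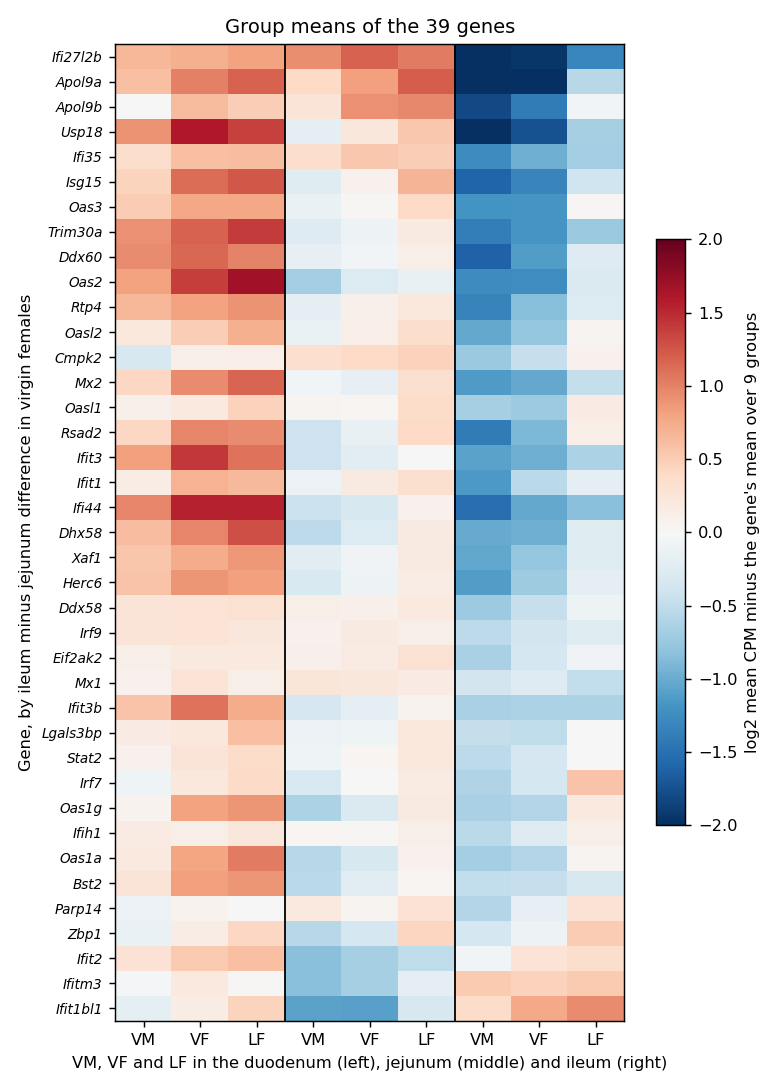
Group means of the 39 genes (rows, ordered by the ileum minus jejunum difference in virgin females) in the 9 groups (columns), as log2 mean CPM minus the gene's mean over groups; the colour scale stops at -2 and 2. The ileum columns of VM and VF are blue for most genes and the LF ileum column is paler, while Ifit1bl1, Ifitm3 and Ifit2 at the bottom are red in the ileum.

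Lactating females were compared with virgin females within each section. In the ileum 14 of 39 genes were higher in lactating females (1.38% of all genes) and 0 lower (0.827%). The fold change was above 0 for 38 of 39, with a median of 0.53 on the log2 scale against -0.01 over all genes. In 9 of 39 genes every lactating library lay above every virgin female library, as in 1.32% of all genes tested. The called genes were Irf7, Oas1g, Oas2, Oas3, Oasl1, Oasl2, Rsad2, Ddx60, Dhx58, Ifih1, Ifi27l2b, Lgals3bp, Apol9a and Apol9b.

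Irf7, the transcription factor that amplifies interferon production, stood at 109, 141 and 170 CPM in the VF ileum and at 205, 269 and 334 CPM in the LF ileum (lowest, median, highest). The groups did not overlap, and the log2 fold change was 0.92 ± 0.14 (adjusted p = 0.00286). Its LF ileum mean, 265 ± 48.4 CPM (SD, n = 6), was also above those of the LF jejunum (199 ± 47.8, n = 5) and LF duodenum (233 ± 49.2, n = 5), with overlapping libraries. Stat2 (0.33 ± 0.12, adjusted p = 0.149) and Irf9 (0.14 ± 0.10, adjusted p = 0.488), its partners in the pathway, did not pass the test.

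Among the Oas genes, Oas3 went from 15.4, 27.8 and 30.8 CPM in the VF ileum to 35.1, 59.8 and 74.8 CPM in the LF ileum, without overlap (1.21 ± 0.21, adjusted p = 0.00694). Oas2 went from 2.43, 4.12 and 4.86 CPM to 4.71, 7.46 and 12.7 CPM, with overlap (0.95 ± 0.24, adjusted p = 0.0402). Oasl2, from 65.7, 80.3 and 98.1 CPM to 99, 140 and 178 CPM, had groups that lay close together without overlap (0.83 ± 0.20, adjusted p = 0.0378). Oasl1, which restrains Irf7 translation in mice, rose by 0.88 ± 0.16 (adjusted p = 0.00757) and Oas1g by 0.79 ± 0.16 (adjusted p = 0.0158). Oas1a, the near twin of Oas1g, was at 0.63 ± 0.20 and did not pass (adjusted p = 0.0924).

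Rsad2, whose product viperin makes a chain-terminating nucleotide, went from 7.97, 9.67 and 13.2 CPM to 14.97, 20.5 and 26.2 CPM, without overlap (1.04 ± 0.18, adjusted p = 0.00694). Cmpk2, its neighbour on chromosome 12, was at 0.54 ± 0.14 and did not pass (adjusted p = 0.0518), nor did Usp18 at 1.07 ± 0.28 (adjusted p = 0.0508). Isg15 went from 8.53, 11.4 and 20.2 CPM to 11.5, 24.5 and 33.5 CPM, with overlap, and did not pass (0.93 ± 0.28, adjusted p = 0.0747). Of the sensors, Ddx60 (0.86 ± 0.20), Dhx58 (0.73 ± 0.17) and Ifih1 (0.37 ± 0.09) rose, with adjusted p of 0.0291, 0.0319 and 0.0410. Zbp1, a sensor of left-handed nucleic acid, ranged from 25.8 to 94.3 CPM in the VF ileum and from 24.8 to 145 CPM in the LF ileum (adjusted p = 0.543).

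Apol9a had the highest fold change of the 39. It stood at 4.93, 9.96 and 13.8 CPM in the VF ileum and at 16.5, 32.5 and 42.7 CPM in the LF ileum, without overlap (1.68 ± 0.26, adjusted p = 0.0037). Apol9b went from 5.93, 12.5 and 22.3 CPM to 26.4, 33.1 and 53.2 CPM, also without overlap (1.35 ± 0.25, adjusted p = 0.00797). Both means were below their jejunal means of 103 and 71.6 CPM in lactating females. Ifi27l2b rose by 0.63 ± 0.14 (adjusted p = 0.0218) and Lgals3bp, a secreted glycoprotein gene, by 0.51 ± 0.11 (adjusted p = 0.0235). The Ifit genes did not pass: Ifit1 (0.36 ± 0.22), Ifit3 (0.33 ± 0.18), Ifit1bl1 (0.20 ± 0.36), Ifit2 (0.08 ± 0.25) and Ifit3b (0.01 ± 0.23) had adjusted p from 0.341 to 0.990.

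**Figure D4:**
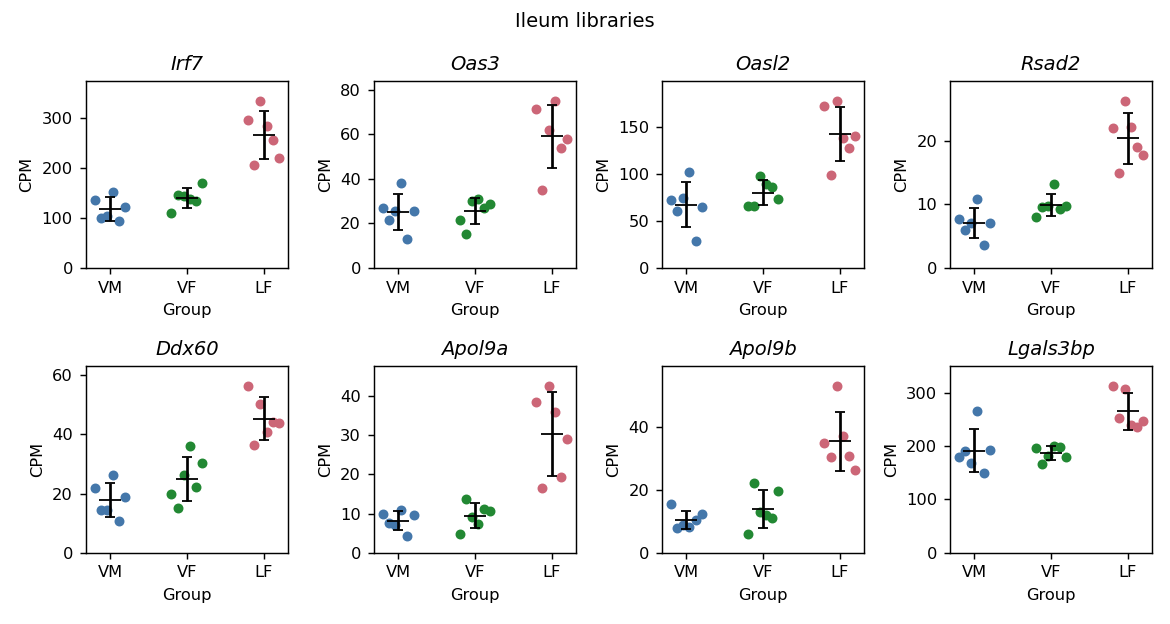
CPM (vertical axes, from 0) of 8 genes called between lactating and virgin females in the ileum, for virgin males (VM), virgin females (VF) and lactating females (LF). Points are libraries, dashes are means and bars are 1 SD (n = 6 each). In each gene shown the lactating libraries lie above all virgin female libraries, with the 6 Irf7 values between 205 and 334 CPM.

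The response element was in the window of 7 of the 11 called genes that had one, and of 12 of the 19 genes not called that had one. Called in all 12 fits that left out 1 library were Irf7, Oas1g, Oas3, Oasl1, Rsad2, Apol9a and Apol9b, while Oas2 lost its call in 9, Oasl2 and Ifih1 in 8, Ddx60 and Dhx58 in 6, and Ifi27l2b and Lgals3bp in 3. The count was 8 without LF ileum 1, VF ileum 1 or LF ileum 3, 7 without VF ileum 3, 9 without VF ileum 5 or LF ileum 6, and 22 without VF ileum 2. It was 9 with libraries scaled by their totals alone, 6 in 1 fit of all 52 libraries and 21 with DESeq2, which called all 14. No share of all genes stands beside these counts, which describe only how the calls depend on the processing. Of 8 villus tip enterocyte markers, 1 was called higher (Ada, 1.31 ± 0.28): their summed level ranged from 554 to 1169 CPM in the VF ileum and from 1041 to 1724 CPM in the LF ileum, with overlap. Slc2a2, a sugar transporter gene that was high in the duodenum and jejunum, was called at 2.47 ± 0.63, with means of 0.419 CPM in the VF ileum and 2.31 CPM in the LF ileum. T and NK cell markers summed to 65.3 to 184 CPM and 58.6 to 256 CPM, with 0 of 13 called, and macrophage markers to 431 to 508 CPM and 426 to 491 CPM, with 1 of 16 (Itgam, -0.77 ± 0.20) lower. Of all genes tested in this comparison, 1.38% were higher and 0.827% lower. The part of these markers in the result was not tested.

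In the duodenum 0 of 39 genes were called (0.00662% of all genes), 0 had an unadjusted p under 0.05 (8.45% of all genes), and the median log2 fold change was 0.08. In the jejunum 0 were called (0.636% of all genes), with 35 of 39 above 0, a median of 0.25 and an unadjusted p under 0.05 for 5, Isg15, Dhx58, Rsad2, Lgals3bp and Ifitm3. These 5 are 12.8% of the list, below the 14.3% of all genes with such a p. Isg15 stood at 22.4, 31.8 and 46.2 CPM in the VF jejunum and at 34.2, 42.7, 53.1, 59.0 and 61.7 CPM in the 5 LF jejunum libraries (0.59 ± 0.22, adjusted p = 0.207). DESeq2 also called 0 in both sections.

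**Figure D5:**
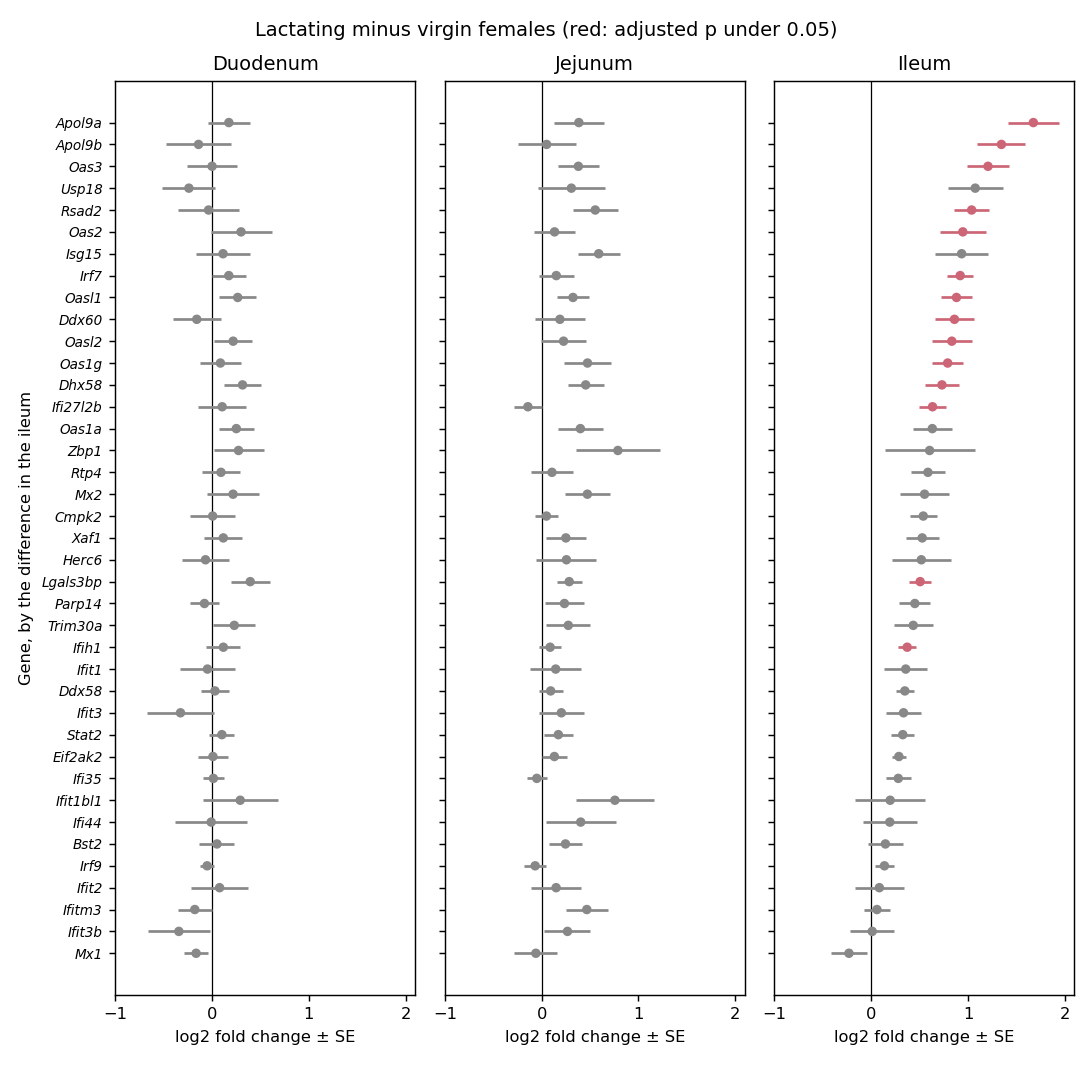
Log2 fold change of lactating over virgin females with its SE (horizontal axes) for the 39 genes (rows, ordered by the ileum) in each section; red marks an adjusted p under 0.05. The 14 red genes are all in the ileum panel, and values in the duodenum lie around 0.

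Whether the lactation effect differed between sections was tested directly in a fit of the 34 female libraries used. Between ileum and duodenum 0 of 39 genes were called (0.0959% of all genes). An unadjusted p under 0.05 was found for 13 of them (33.3%, against 5.52% of all genes), with 37 of 39 differences above 0. The lowest adjusted p was 0.167, for Apol9a, whose lactation effect was higher in the ileum by 1.5 ± 0.39 on the log2 scale, and DESeq2 called 1, Apol9a (adjusted p = 0.0431). Between ileum and jejunum 0 were called (0.0384% of all genes), and 6 had an unadjusted p under 0.05 (15.4%, against 8.05% of all genes), among them Apol9a (1.29 ± 0.39) and Irf7 (0.77 ± 0.26). Between jejunum and duodenum 0 were called (0% of all genes), and 1, Ifitm3, had an unadjusted p under 0.05 (2.56%, against 3.85% of all genes).

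Virgin females were compared with virgin males, and this comparison shares its virgin female libraries with the one on lactation. In the duodenum 0 of 39 genes were called (0.0331% of all genes), in the jejunum 0 (0.0676%) and in the ileum 0 (0.0861%). The fold change was above 0 for 38, 32 and 36 genes, with medians of 0.28, 0.18 and 0.25, and 6, 1 and 9 genes had an unadjusted p under 0.05. These are 15.4%, 2.56% and 23.1% of the list, against 8.04%, 6.86% and 9.70% of all genes. DESeq2 called 1 gene in the ileum, Eif2ak2 (0.30, adjusted p = 0.0413), the kinase that shuts down translation on double-stranded RNA, and edgeR called the same gene without VF ileum 2. Oas1g in the duodenum, at 14.5, 20.2 and 27.6 CPM in males and 23.1, 30.2 and 51.9 CPM in virgin females, overlapped between the sexes (0.73 ± 0.21, adjusted p = 0.61). Lactating females and virgin males differ in both sex and lactation, which cannot be told apart here, and the lactating libraries are those compared above. In the ileum 37 of 39 means were higher in lactating females than in virgin males (48.6% of all genes). In 15 genes every lactating library lay above every male library (5.14% of all genes).

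The genes moved together from library to library within groups. Over the 52 libraries, the deviation of each gene from its group mean had a Pearson correlation with the mean deviation of the other listed genes of 0.77 at the median, from 0.31 for Ifitm3 to 0.95 for Oasl2. Apol9b (0.35) and Ifi27l2b (0.36) were close to the bottom of that order. Of 12349 genes outside the list, those closest to the mean of the 39 were Spats2l (0.83), Trafd1 (0.81), Slfn4 (0.81), Rnf213 (0.80), Phf11d (0.77), Adar (0.76), Sp100 (0.74), Irgm1 (0.73), Parp11 (0.73) and Epsti1 (0.73), where the 99th percentile was 0.47. The summed deviation of the T and NK cell markers had a correlation of 0.33, that of the macrophage markers 0.15 and that of the villus tip markers 0.15. These values describe the libraries, which share tissue, preparation and scaling.

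Reads of the listed interferons other than Ifng were almost absent. The counts leave out reads that fit several places, so they do not show that the transcripts were absent. Of 13 listed ligand genes, 5 had no read in any of the 52 libraries, and the 12 other than Ifng had 28 reads in all, at most 3 in a library. Ifng, the type II interferon made by T and NK cells, had 284 reads over the 52 libraries, 48 in the VF ileum and 79 in the LF ileum, a difference that did not pass the test (0.76 ± 0.40, adjusted p = 0.334). In the lactating ileum against the virgin female ileum, 0 of 9 receptor and kinase genes, 0 of 33 interferon gamma GTPase and antigen presentation genes, 0 of 20 nucleic acid sensing and transcription factor genes and 1 of 65 other interferon-stimulated genes (Tdrd7, 0.30 ± 0.08) were called. Of all genes tested, 1.38% were higher and 0.827% lower here, so these counts do not set the lists apart from all genes. The medians of these lists were 0.06, 0.13, 0.01 and 0.04 on the log2 scale, against 0.53 for the 39 genes. The 39 genes and these lists were chosen with earlier results of these data known, so this contrast is not independent of the choice.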

How the data were processed

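Polyadenylated RNA was sequenced with a strand-specific kit, per the labels' protocols. STAR 2.7.7a, DESeq2 1.34.0, FastQC 0.11.5 and the build GRCm38 are listed in the submitters' processing notes, with no role for any of them. The authors deposited raw read counts per gene symbol, with 4 entries for reads assigned to no gene, which held 20.0% to 31.7% of reads in the 52 libraries used and stayed out of library sizes. Column 4 held 97.9% to 98.6% of stranded gene reads and was used.

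Counts were tested with edgeR 4.0.16 under R 4.3.3 (quasi-likelihood F test, expression filter with minimum count 10 and total 15, Benjamini-Hochberg adjustment over all genes tested). TMM factors were set once over the 52 libraries, so each library has 1 CPM scale. Log2 CPM used a prior count of 2. Fits held the libraries of 1 section (lactation, sex), of 1 kind of mouse (sections), or of all females used (differences of the lactation effect). Alternatives were all 54 libraries as labelled, TMM within the fit, median-of-ratios factors, library totals alone, 2 other filters on low counts (none, or CPM above 1 in at least 6 libraries), DESeq2 1.42.0, reads of both strands, a replicate block, only the groups compared, 1 fit of all 52 libraries, and leaving out each library. The code was tested on simulated data. Same-numbered libraries did not deviate together in every pair, so the numbers were not used to pair samples.

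The genes and lists were chosen with earlier results of these data known. Libraries of the same group differed beyond counting noise in all 125 pairs (chi-square per degree of freedom 13.3 to 148), and each was counted as 1 sample. The plan was to name 12 genes in all groups (Irf7, Stat2, Irf9, Isg15, Ifit1, Oas2, Oas3, Rsad2, Ddx60, Zbp1, Apol9a and Apol9b). It also covered every called gene of the 39, with full statistics for at most 12. Beyond these it held the 10 outside genes closest to the mean of the 39 and up to 4 called genes of other lists. In the text, levels of the 12 genes are printed only for some groups, and not every comparison lists its called genes. Coordinates are from GENCODE M21 and promoters from RefSeq. Coordinates count from 1.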

Additional observations from a re-analysis of the deposited data

Results flagged for a closer look

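Levels were checked for outlying libraries in 117 sets of values, each set taken within a single group of libraries. In 8 sets a library lay far from the others of its group. The criterion is met by chance in about 1 in 20 sets, so several such sets would arise by chance. The sets are not independent, because the genes moved together from library to library within groups. Of the 8, 4 were in the same library, VM duodenum 5. Ifit1 was at 162 CPM there (55.9 to 86.0 in the other libraries) and Oas2 at 25.0 CPM (12.1 to 16.1). Rsad2 was at 48.1 CPM there (14.3 to 25.2) and Apol9b at 78.1 CPM (16.7 to 36.1). Irf9 was at 82.5 CPM in VM jejunum 2 (57.2 to 63.7). In the VF ileum, Ifit1 was at 82.4 CPM in replicate 3 (41.7 to 53.5) and Rsad2 at 13.2 CPM in replicate 4 (7.97 to 9.76). Ddx60 was at 241 CPM in VF duodenum 3 (79.8 to 119).

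The library labelled LF duodenum 3 had 6 of the 39 genes above every virgin female library of its labelled section, and that labelled LF jejunum 3 had 8. The share over all genes was not taken, so these counts show nothing particular to the 39 genes. Among the 12 genes listed above, 3 values lay above every virgin female library of the labelled section. The library labelled LF duodenum 3, with a liver profile, had Irf9 at 85.7 CPM (VF duodenum 65.5 to 81.2) and Apol9b at 173 CPM (23.6 to 81.9). The library labelled LF jejunum 3, with duodenal genes, had Oas2 at 12.7 CPM (VF jejunum 5.32 to 9.998).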

How the results depend on the processing

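The lactating ileum had 14 calls, against 9 with library totals alone, 6 in 1 fit of all 52 libraries, 21 with DESeq2, and 7 to 22 when single libraries were left out. Library totals alone gave 16 calls between ileum and jejunum in virgin females (27 with TMM). With all 54 libraries as labelled, lactating females had 8 calls between jejunum and duodenum and 7 between ileum and jejunum (15 each without the 2 libraries). DESeq2 called 1 gene by sex in the ileum (Eif2ak2), where leaving out single libraries gave 0 to 1, and 1 (Apol9a) in the difference of the lactation effect between ileum and duodenum. Leaving out single libraries gave 10 to 17 calls between jejunum and duodenum and 12 to 19 between ileum and jejunum in lactating females. Counts in the other comparisons were within 1.5 times the reported ones under every alternative run. Library totals alone moved the median of all genes in virgin females from -0.05 to -0.26 (jejunum against duodenum) and from 0.06 to 0.41 (ileum against jejunum), and in the lactating ileum from -0.01 to -0.10. The same shifts reached -0.25 and 0.46 in virgin males and -0.15 and 0.27 in lactating females. Of all genes tested, 3610 were higher and 3654 lower between ileum and jejunum in virgin females, against 8097 and 1731 with library totals alone, and 209 and 125 in the lactating ileum, against 122 and 446. With the replicate number as a block, 12 of the 14 genes were called in the lactating ileum (without Ifih1 and Ifi27l2b), and every other count was within 1.5 times. The labels do not say whether a number marks 1 animal. In 0 of 18 sets of same-numbered pairs (2 groups each) were the deviations of every pair correlated over 0.1, and in 0 was every library closest to its own number. Single pairs ranged from -0.62 to 0.60, and the mean of the 39 genes correlated over the 5 or 6 pairs of a set at -0.67 to 0.93. Of 1221 values of single genes, 10 reversed, none of them past the threshold under the alternative: in the lactating duodenum Isg15 (-0.033), Oas3 (-0.24) and Apol9b (0.33) with all 54 libraries, Oas3 (-0.036) with library totals, and Ifit1 (0.069), Rsad2 (0.078) and Ddx60 (0.043) with the block. In the lactating jejunum Apol9b reversed with all 54 libraries (-0.077) and with the block (-0.036), and in the ileum against the jejunum of virgin males Irf7 reversed with library totals (0.11). The cause was not tested. Reads that fit several genes are not in the counts, and ligand genes with at most 3 reads in a library cannot be compared at this depth.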
